A study of Mus musculus with 7 samples.

Results

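Galanin, cholecystokinin, neurotensin and related feeding signals were followed in the hypothalamus through 10 genes: the peptide precursor genes Gal, Cck, Nts and Nmb, and the receptor genes Galr1, Cckar, Cckbr, Ntsr1, Glp1r and Brs3. The genes were taken by name, with every probe set that the array annotation assigns to that symbol alone, which gave 13 of the 45037 probe sets tested. Galr1 had 3 probe sets, Cckbr had 2 and each of the other 8 genes had 1. The tested animals carry the genotype Creb-PomcCre-/-, in which Cre, driven by Pomc, removes the transcription factor CREB from Pomc cells (3 arrays, called knockout here), and the reference animals were wild type (4 arrays). All mice were 3 months old, and each array holds RNA of a whole dissected hypothalamus, in which Pomc neurons of the arcuate nucleus are a small part. Strain, the Creb allele before recombination, whether the wild-type mice carried Cre and whether animals were pooled are not given in the sources used here.

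These peptides reach neurons as secreted messengers and act through receptors coupled to G proteins. Cholecystokinin, made by gut cells and by brain neurons, shortens meals through Cckar, the receptor that prefers the sulphated peptide, while Cckbr also binds short and unsulphated forms and is the main cholecystokinin receptor of the brain. Neurotensin reduces feeding, in part through its high-affinity receptor Ntsr1. Galanin is the exception among the peptides, since given into the hypothalamus it stimulates feeding, and its receptor Galr1 inhibits neurons through Gi. Neuromedin B, the product of Nmb, is a mammalian relative of bombesin, and Brs3 is an orphan receptor of the bombesin family whose loss makes mice obese. Glp1r, the receptor for glucagon-like peptide 1, couples to Gs and cyclic AMP and is known from arcuate Pomc neurons. CREB is activated downstream of cyclic AMP and binds the element TGACGTCA or its half-site TGACG.

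Promoter windows are shown for genes on which the results below turn, because the deleted factor binds DNA. RefSeq promoter windows (assembly GRCm38.p6, 250 bases before to 50 after the annotated start) were at hand for 8 of the 10 genes, all but Cckar and Galr1. The letters searched, on both strands, were the full element TGACGTCA, the half-site TGACG, the element with any central pair TGANNTCA, which includes the full element, and TGANTCA, the usual site of AP-1. The full element was in 0 of the 8 windows, against 1.79% of 32851 windows of the same length. The half-site was in 4 of the 8, those of Cck, Gal, Nts and Ntsr1, against 20.8% of all windows. Only the Nts window held TGANNTCA (14.1% of all windows) and TGANTCA (7.81%). In the 250 bases before the start of Cck (chr9:121495695-121495944, minus strand) and of Nts (chr10:102490419-102490668, minus strand), capitals mark every match, and the same stretch of Nmb (chr7:80905063-80905312, minus strand) held none. For Gal the half-site lay 20 to 24 bases after the annotated start, and 30 bases around it are shown (chr19:3414508-3414537, minus strand).
Cck: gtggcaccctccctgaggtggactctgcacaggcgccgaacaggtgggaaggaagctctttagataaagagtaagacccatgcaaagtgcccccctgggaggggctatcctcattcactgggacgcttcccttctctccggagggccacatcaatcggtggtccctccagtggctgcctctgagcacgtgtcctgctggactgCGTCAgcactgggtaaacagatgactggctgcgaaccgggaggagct
Nts: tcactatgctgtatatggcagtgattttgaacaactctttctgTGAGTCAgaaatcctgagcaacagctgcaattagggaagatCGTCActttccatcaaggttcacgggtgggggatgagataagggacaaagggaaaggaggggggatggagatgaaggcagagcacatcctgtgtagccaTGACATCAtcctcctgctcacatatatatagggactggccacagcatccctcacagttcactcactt
Nmb: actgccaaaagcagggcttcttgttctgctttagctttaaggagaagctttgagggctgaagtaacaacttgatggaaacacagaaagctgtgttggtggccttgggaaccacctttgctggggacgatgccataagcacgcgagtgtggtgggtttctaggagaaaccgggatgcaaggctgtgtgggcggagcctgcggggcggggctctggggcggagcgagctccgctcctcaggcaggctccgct
Gal: gcgctgagccggTGACGcggcagctcccac
Counted from the annotated start, with bases before it negative, the Cck half-site reads CGTCA on the printed strand at -47 to -43. In Nts the half-site reads CGTCA at -166 to -162, TGACATCA lies at -67 to -60 and TGAGTCA at -207 to -201. These matches describe letters in the windows, and binding was not measured.

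Values are the deposited log2 expression values, on which a difference of 1 is a doubling. Array medians lay between 6.19 and 6.24, and arrays correlated at 0.994 to 0.997 over all probe sets. The Creb1 probe set with the highest mean read 9.42, 9.46 and 9.47 in knockout arrays, against 9.44, 9.57, 9.40 and 9.56 in wild-type arrays, a difference of -0.041 ± 0.054 (SE; limma, adjusted p = 0.816). The other Creb1 probe sets differed by 0.146, -0.114, 0.0935, 0.0163 and 0.18 (limma, lowest adjusted p = 0.467). These values do not check the genotype: few cells of this tissue are targeted, and nothing used here says whether the probes lie in the removed sequence. Sex is not given in the labels. By their Xist and Y-linked signals, knockout array 1 and wild-type arrays 1 and 4 were female, and the other 4 arrays were male. Of 12 hypothalamic marker genes 10 had a probe set with that symbol alone, and 9 of these, such as the melanin-concentrating hormone gene Pmch at 13.76 to 13.97 in knockout and 13.66 to 13.91 in wild-type arrays, lay above the overall median level of 6.22. Nkx2-1 lay below it. Hypothalamic markers were higher in the knockout for 8 of the 10, with 0 past the threshold and a median of 0.13, or -0.027 without wild-type arrays 2 and 3, and their part in the differences below was not tested. Markers of neighbouring tissue differed between arrays of the same genotype. A marker score is here the median, over a list's genes, of the deviation from each gene's mean over all arrays. The thalamus and habenula score was -0.36 to 0.12 in knockout arrays and -0.29 to 0.84 in wild-type arrays, highest in wild-type array 2, and the meningeal score was -0.42 to -0.31 in knockout arrays and -0.33 to 1.11 in wild-type arrays, highest in wild-type array 3.

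None of the 13 probe sets passed the threshold of 0.05 in the test of knockout against wild type (limma, Benjamini-Hochberg over 45037 probe sets, lowest member adjusted p = 0.332). Over all probe sets 3 passed, which is 0.00666% (0.00444% higher and 0.00222% lower in the knockout). Differences, always knockout minus wild type, were above 0 for 7 of the 13 and below 0 for 6, with a median of 0.024, against a median of 0.0084 over all probe sets. At an unadjusted p under 0.05 there were 2, Nmb (higher) and 1 of the Cckbr probe sets (lower), against 10.6% of all probe sets (5.55% higher and 5.07% lower). In the same 2 the ranges of the genotypes were apart, against 11.0% of all probe sets (6.02% higher and 5.02% lower). A count of 2 in 13 is near this background and is no result about these genes. In whole tissue, fewer cells of a type and less RNA per cell cannot be told apart.

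**Figure D1:**
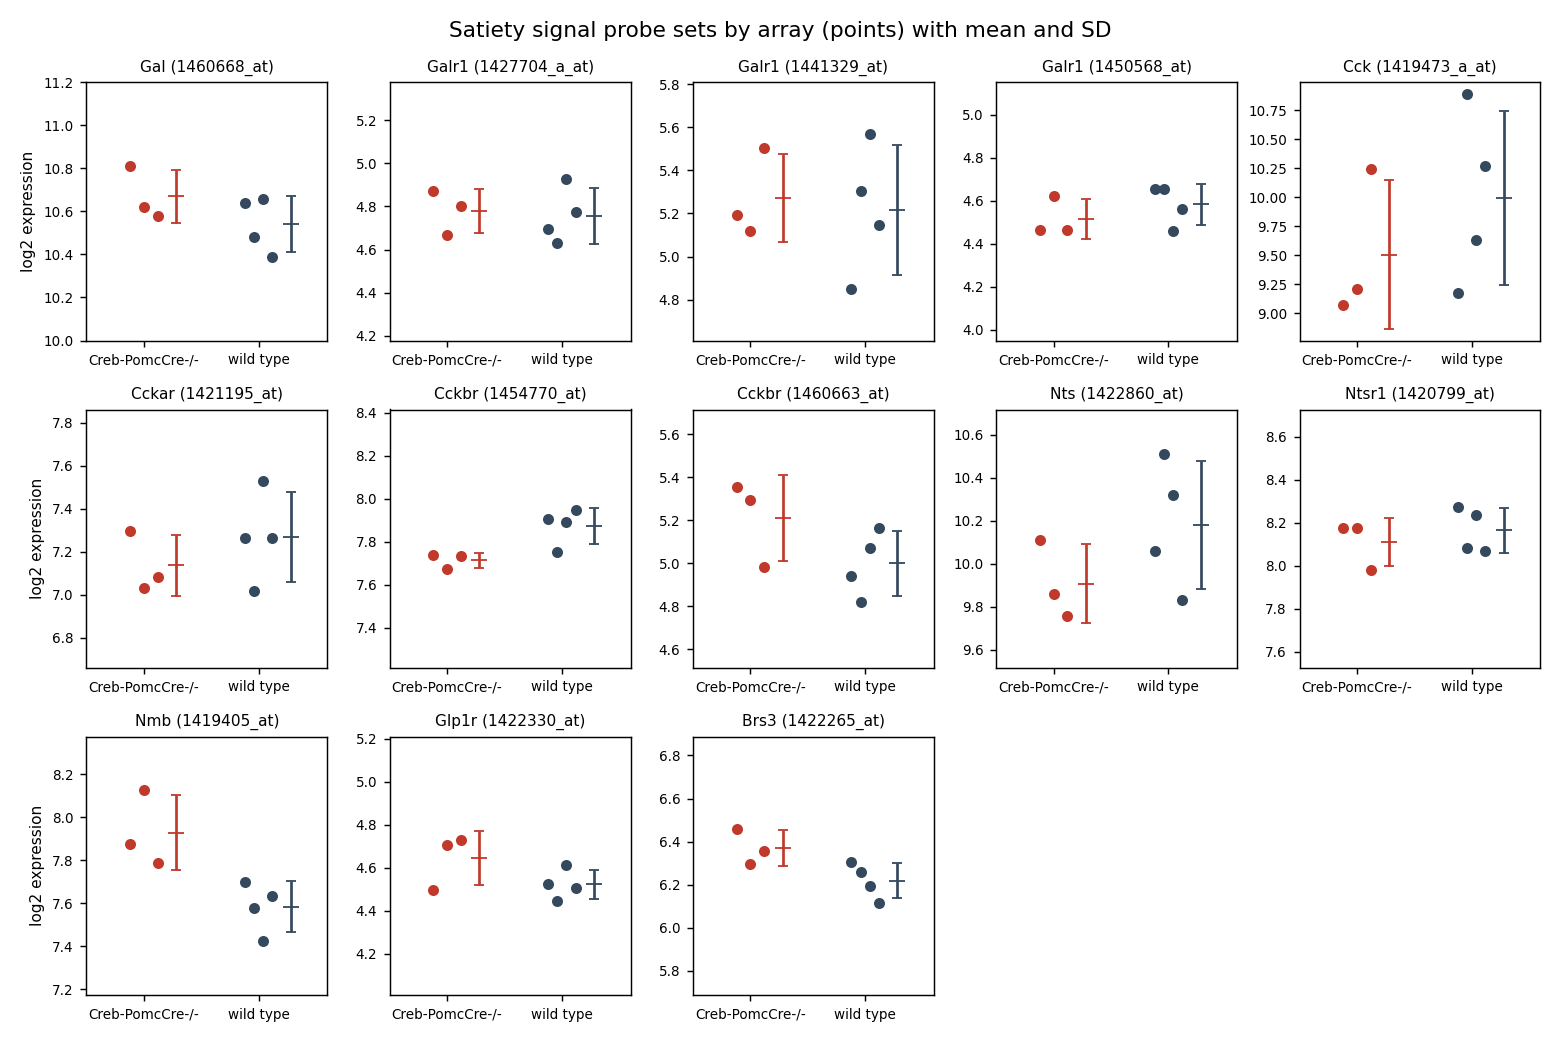
Log2 expression of the 13 probe sets in each array, Creb-PomcCre-/- left and wild type right, 1 point per array, with the mean and SD beside the points; the vertical axes start and end at different levels. Knockout and wild-type points are apart for Nmb and for Cckbr probe set 1454770_at, and Cck spreads most within both groups, from 9.07 to 10.24 in knockout and from 9.17 to 10.89 in wild-type arrays.

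Among the peptide genes, Nmb was the closest to a difference. Nmb read 7.87, 8.13 and 7.79 in knockout arrays, against 7.70, 7.58, 7.43 and 7.63 in wild-type arrays. Every knockout array lay above every wild-type array, with knockout array 2 the highest. The means were 7.93 ± 0.18 (SD, n = 3) in knockout and 7.58 ± 0.12 (SD, n = 4) in wild type, a difference of 0.34 ± 0.096 (SE), or 1.27-fold with a 95% interval of 1.09 to 1.47 (limma, adjusted p = 0.332). The gap was 0.21 within females, where 1 knockout array is set against 2, and 0.45 within males. Without wild-type arrays 2 and 3 it was 0.26. Of the 8 pituitary markers measured 6 were higher in the knockout, from 0.0043 for Gh to 1.8 for Tshb. Lhb, at -0.17, and Prl, at -0.0017, were lower. Scores, which rest mostly on dim genes, were 0.13 to 0.15 in knockout and -0.15 to 0.096 in wild-type arrays. The brightest of the 8 markers was Cga, the alpha subunit gene shared by thyrotropin and the gonadotropins, at 9.23, 9.38 and 9.38 in knockout arrays, against 10.11, 8.30, 8.04 and 6.91 in wild-type arrays. The next was the thyrotropin beta subunit gene Tshb, at 7.62, 6.78 and 7.94 in knockout arrays, against 7.54, 5.37, 4.64 and 4.98 in wild-type arrays. For both, wild-type array 1 lay within or above the knockout range and the other wild-type arrays below it, and neither gene passed (limma, adjusted p = 0.533 for Cga and 0.343 for Tshb). The other 6 genes were below the overall median level, among them the growth hormone gene Gh (5.61 to 5.97 in knockout, 5.65 to 5.89 in wild type) and the prolactin gene Prl (3.96 to 4.24 in knockout, 4.02 to 4.20 in wild type). The part of pituitary tissue in the Nmb values was not tested.

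Cck was the most variable of the 10 genes. It read 9.07, 9.21 and 10.24 in knockout arrays, against 9.17, 10.89, 9.63 and 10.27 in wild-type arrays. The groups overlapped over most of their range, and knockout array 3 lay with the upper wild-type arrays. The means were 9.50 ± 0.64 (SD, n = 3) in knockout and 9.99 ± 0.75 (SD, n = 4) in wild type. The difference of -0.48 ± 0.40 (SE) had a 95% interval from -1.39 to 0.42, which runs from 0.381-fold to 1.34-fold (limma, adjusted p = 0.691). The wild-type SD was larger than that of 99.6% of all probe sets, where the median was 0.092. Leaving out wild-type array 2 brought the difference to -0.18, leaving out wild-type arrays 2 and 3 to -0.22 and leaving out knockout array 1 to -0.26. Leaving out wild-type array 1 gave -0.76 and leaving out knockout array 3 gave -0.85.

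Cck levels had the order of thalamic markers in the 4 arrays where it was highest. The thalamus and habenula score was 0.12 in knockout array 3, and 0.84, 0.26 and -0.18 in wild-type arrays 2, 4 and 3, while Cck in those arrays read 10.24, and 10.89, 10.27 and 9.63. In knockout arrays 1 and 2 and wild-type array 1 the scores were -0.28, -0.36 and -0.29, and Cck read 9.07, 9.21 and 9.17. Of the 16 thalamic markers 15 were lower in the knockout and 0 passed, with a median difference of -0.34, or -0.12 without wild-type array 2. Among them the protein kinase gene Prkcd read 6.94, 7.02 and 8.58 in knockout arrays, against 6.73, 10.29, 7.53 and 9.25 in wild-type arrays. Markers of cortex, striatum and amygdala, which also contain Cck neurons, had scores of -0.078 to 0.042 in knockout and -0.071 to 0.061 in wild-type arrays. The part of thalamic tissue in the Cck values was not tested.

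**Figure D2:**
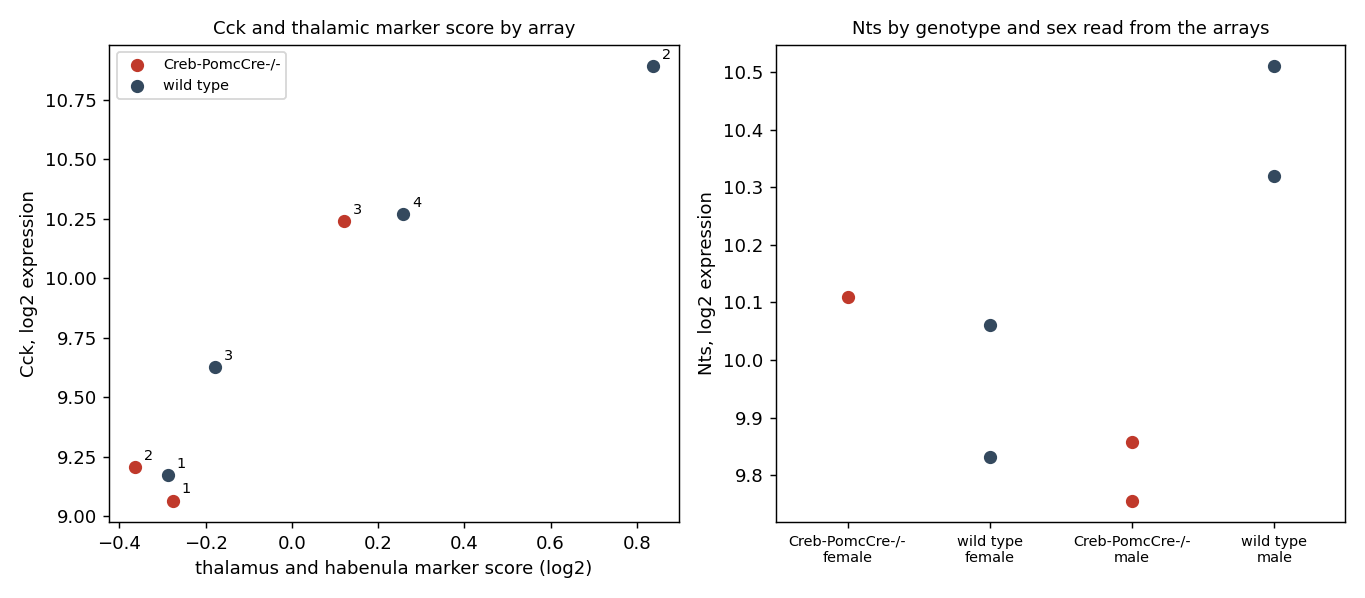
Left, Cck log2 expression against the thalamus and habenula marker score of each array, with array numbers beside the points; Cck is above 9.6 only in the 4 arrays with the highest scores. Right, Nts log2 expression by genotype and by the sex read from the arrays; both male knockout arrays lie below both male wild-type arrays, and the single female knockout array lies just above the 2 female wild-type arrays.

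Nts read 10.11, 9.86 and 9.76 in knockout arrays, against 10.06, 10.51, 10.32 and 9.83 in wild-type arrays. Wild-type arrays 2 and 3, both male, were above all others, and the groups overlapped. The means were 9.91 ± 0.18 (SD, n = 3) in knockout and 10.18 ± 0.30 (SD, n = 4) in wild type, a difference of -0.27 ± 0.15 (SE) with a 95% interval from -0.61 to 0.066 (limma, adjusted p = 0.544). Within males the difference was -0.61 (limma on 2 arrays a group, adjusted p = 0.135), and within females it was 0.16. Without wild-type arrays 2 and 3, which also had the 2 highest meningeal scores (0.33 and 1.11), it was -0.039, and without wild-type array 2 alone -0.16. Leaving out wild-type array 4 gave -0.39. Among wild-type arrays male sex and a high meningeal score cannot be told apart. Wild-type arrays 2 and 3 also had the lowest hypothalamic marker scores (-0.28 and -0.045), with knockout array 3 close at -0.039. The thalamic score was second highest in wild-type array 4, at 0.26, the lowest of the wild-type arrays in Nts. The part of tissue content in the Nts values was not tested.

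Gal, the galanin precursor gene, read 10.81, 10.62 and 10.58 in knockout arrays, against 10.64, 10.48, 10.66 and 10.39 in wild-type arrays. Only knockout array 1 lay above all wild-type arrays. The difference was 0.13 ± 0.078 (SE), with a 95% interval from -0.047 to 0.31 or from 0.968-fold to 1.24-fold (limma, adjusted p = 0.576). It was 0.30 within females and 0.032 within males. When knockout array 1 was left out the difference was 0.061, and when wild-type array 4 was left out 0.078. Leaving out knockout array 3 gave 0.175 and leaving out wild-type array 3 gave 0.168.

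Of the receptor genes, Cckbr gave 2 readings of opposite sign. Probe set 1454770_at read 7.74, 7.67 and 7.73 in knockout arrays, against 7.91, 7.75, 7.89 and 7.95 in wild-type arrays. All knockout values were lower than all wild-type values, though the closest pair differed in the second decimal, and the groups overlapped once array medians were subtracted or arrays were quantile normalized. The difference was -0.16 ± 0.063 (SE), with a 95% interval from -0.30 to -0.017 (limma, adjusted p = 0.43). The dimmer probe set 1460663_at read 5.36, 5.29 and 4.98 in knockout arrays, against 4.94, 4.82, 5.07 and 5.17 in wild-type arrays, a difference of 0.21 ± 0.12 (SE; limma, adjusted p = 0.543). With the mean of both probe sets Cckbr differed by 0.026, so its direction depends on the probe set. General neuron markers were lower beside the first, in 6 of 8 genes with 0 past the threshold, with scores of -0.065 to -0.025 in knockout and 0.0086 to 0.086 in wild-type arrays. The order of single arrays differed, since wild-type array 2 had the highest score and the lowest wild-type reading of 1454770_at, 7.75. The part of neuron content in the Cckbr values was not tested.

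Cckar, the receptor through which cholecystokinin from the gut shortens meals, read 7.30, 7.03 and 7.08 in knockout arrays, against 7.26, 7.02, 7.53 and 7.26 in wild-type arrays. The groups overlapped, and wild-type array 3 was the highest. The difference of -0.13 ± 0.12 (SE; limma, adjusted p = 0.715) became -0.046 when wild-type array 3 was left out and -0.22 when wild-type array 2 was. Ntsr1 read 8.17, 8.17 and 7.98 in knockout arrays, against 8.27, 8.08, 8.23 and 8.07 in wild-type arrays. The groups overlapped, with wild-type arrays 1 and 3 above all knockout arrays and knockout array 3 below all wild-type arrays. The difference was -0.055 ± 0.077 (SE; limma, adjusted p = 0.828), and it was 0.0093 without knockout array 3.

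Brs3, the X-linked bombesin-family receptor, read 6.46, 6.30 and 6.35 in knockout arrays, against 6.31, 6.26, 6.20 and 6.11 in wild-type arrays. The groups overlapped by a single pair, knockout array 2 and wild-type array 1. The difference was 0.15 ± 0.076 (SE) with a 95% interval from -0.021 to 0.32 (limma, adjusted p = 0.514), and it was 0.25 within females and 0.10 within males. Brs3 lay close to the overall median level.

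Galr1, Glp1r and the second Cckbr probe set were below the overall median level. As a gauge of background, 9 probe sets of the Y-linked genes Eif2s3y, Kdm5d and Uty read 2.62 to 3.91 in the female arrays, which lack those genes. Ddx3y, which also served to read sex, was left out of this gauge. In male arrays 3 probe sets of the X-inactivation transcript Xist read 3.21 to 6.37, a range whose top exceeds the overall median level of 6.22. Values of these dim members and of Brs3 lie above the first range. Those of the dim members, and most of those of Brs3, lie inside the second. The gauges differ, so whether these levels exceed background is not settled here. The Galr1 probe set with the highest mean, 1441329_at, read 5.19, 5.12 and 5.50 in knockout arrays, against 4.85, 5.30, 5.57 and 5.15 in wild-type arrays. Its groups overlapped, and the 3 Galr1 probe sets differed by 0.055, 0.024 and -0.068 (limma, lowest adjusted p = 0.789). Glp1r read 4.50, 4.71 and 4.73 in knockout arrays, against 4.53, 4.45, 4.61 and 4.51 in wild-type arrays. Knockout arrays 2 and 3 were the highest, array 1 lay among the wild-type values, and the difference was 0.12 ± 0.081 (SE; limma, adjusted p = 0.616), or 0.195 without knockout array 1.

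**Figure D3:**
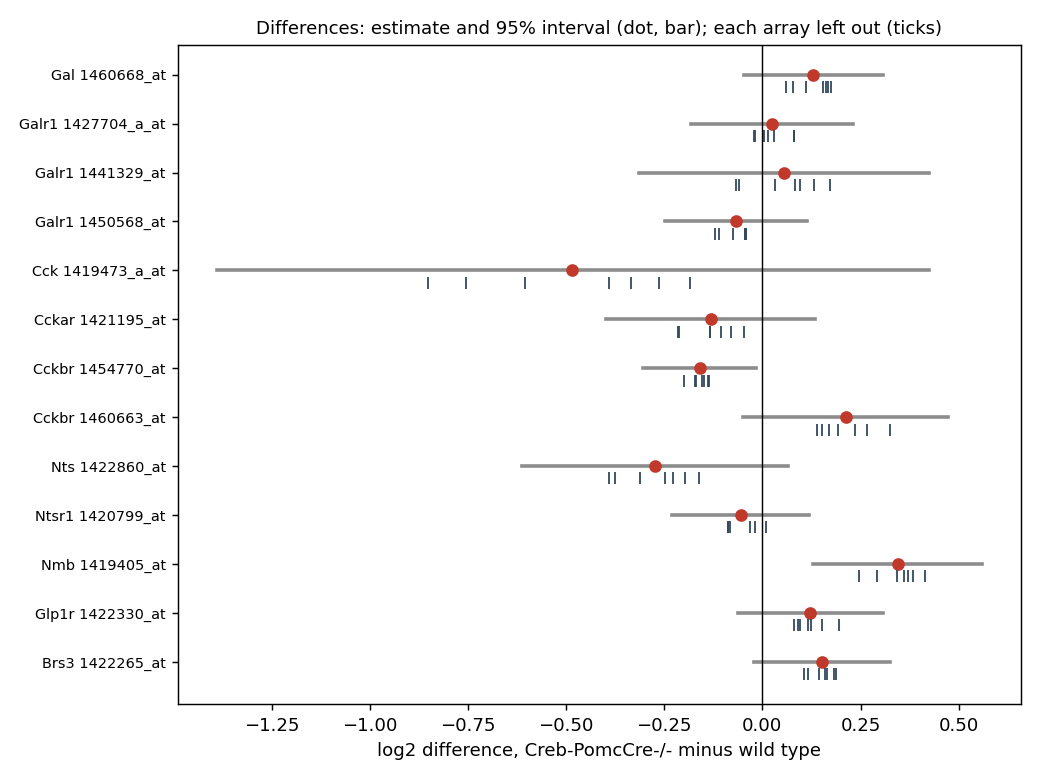
Log2 difference of each of the 13 probe sets, Creb-PomcCre-/- minus wild type (dots), with limma's 95% interval (bars) and the difference with each of the 7 arrays left out in turn (ticks). The intervals of Nmb and of Cckbr 1454770_at lie to 1 side of 0 before adjustment for the number of probe sets, and that of Cck, from -1.39 to 0.42, is the widest.

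Genes around these signals were read from lists, 1 probe set per gene, over 18193 genes of which 2 passed (0.0110%). Of 31 further peptides and receptors of the same and neighbouring families, 27 were measured, 14 higher and 13 lower, and 0 passed, with a median of 0.0063 against 0.0036 over all genes. The 4 with the smallest unadjusted p were all higher. Grpr, the receptor for gastrin-releasing peptide and a relative of Brs3, read 4.34, 4.68 and 4.53 in knockout arrays, against 4.28, 4.10, 3.99 and 4.16 in wild-type arrays (difference 0.39, limma, adjusted p = 0.267). Galr2, a galanin receptor that couples to Gq, read 4.27, 4.18 and 4.52 in knockout arrays, against 3.94, 4.10, 3.98 and 3.79 in wild-type arrays (0.37, adjusted p = 0.272). Both sets of knockout values lay above their wild-type values at dim levels, inside the range that Xist probe sets gave in male arrays. Whether these levels exceed background is not settled here, and the other Grpr probe set differed by -0.011.

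Iapp, the amylin precursor gene, was dimmer and differed by 0.27 (limma, adjusted p = 0.313). Its wild-type values, 3.68 to 3.86, lay inside the range of 2.62 to 3.91 that Y-linked probe sets gave in female arrays. Adcyap1, the precursor gene of the peptide PACAP, was bright, at 10.24 to 10.38 in knockout arrays, against 9.76 to 10.30 in wild-type arrays (0.28, limma, adjusted p = 0.377), with the groups overlapping at wild-type array 1. At an unadjusted p under 0.05, 5 genes of the list were higher, against 5.60% of all genes, and 1 was lower, against 6.12%. The lower one was Spx, at -0.45 (limma, adjusted p = 0.391), with the groups overlapping. In the list 4 genes had higher knockout values with no overlap, against 6.09% of all genes, and 0 had lower ones, against 6.05%. Another 2 genes, chosen after their values were seen, had wide spreads. Ramp3, a partner protein of the calcitonin receptor, read 7.84, 7.78 and 9.02 in knockout arrays, against 7.37, 10.24, 8.14 and 9.25 in wild-type arrays, highest in the same 3 arrays as Cck. Its difference of -0.54 was -0.039 without wild-type array 2 and -0.997 without wild-type array 1. Vip, a peptide gene of the suprachiasmatic nucleus, read 6.80, 7.82 and 9.21 in knockout arrays, against 9.12, 8.51, 8.40 and 8.59 in wild-type arrays. Its difference of -0.71 was -0.14 without knockout array 1 and -1.35 without knockout array 3.

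Among enzymes that make and break these peptides no gene passed, which with so few arrays does not show that they were unchanged. Of 9 processing genes 8 were measured, all but the convertase gene Pcsk2, which had no probe set with that symbol alone. Of the 8, 6 were higher and 2 lower, with 0 passed and a median of 0.029. The 4 with the smallest unadjusted p were Pam, the amidating enzyme that completes cholecystokinin, galanin and neuromedin B, at -0.099 ± 0.052 (SE), the prohormone convertase gene Pcsk1 at 0.27 ± 0.16 (SE), its relative's chaperone Scg5 at -0.12 ± 0.10 (SE) and the glutaminyl cyclase gene Qpct at 0.095 ± 0.098 (SE), with a lowest adjusted p of 0.486 (limma). Single arrays moved 3 of them in either direction. Without wild-type array 2 Pcsk1 was at 0.147, Qpct at 0.010 and Scg5 at -0.18. Without wild-type array 1 Pcsk1 was at 0.395, Qpct at 0.157 and Scg5 at -0.021. Of 8 breakdown genes 3 were higher and 5 lower, with 0 passed and a median of -0.012. Thop1, a neurotensin-cleaving endopeptidase, differed by 0.070, Tpp2, a cholecystokinin-inactivating peptidase, by -0.060, the prolyl endopeptidase gene Prep by -0.10 and Dpp4, which inactivates glucagon-like peptide 1, by 0.075, with a lowest adjusted p of 0.675 (limma). Prep was at -0.029 without wild-type array 2 and at -0.188 without wild-type array 1. Dpp4 was at 0.018 without knockout array 3 and at 0.15 without knockout array 2. The other Thop1 probe set differed by -0.087 and the 3 other Dpp4 probe sets by -0.25 to -0.29.

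Read with 1 probe set per gene, the signal transduction list leaned to lower values. Of 13 genes measured 9 were lower and 4 higher, with 0 passed and a median of -0.083, and 6 were lower at an unadjusted p under 0.05, against 6.12% of all genes. In 5 genes every knockout value was below every wild-type value, against 6.05% of all genes, and in Gna11 every one was above. Gnas, which encodes the G protein subunit through which Glp1r raises cyclic AMP, read 13.58, 13.57 and 13.55 in knockout arrays, against 13.69, 13.67, 13.67 and 13.66 in wild-type arrays. The gap of -0.11 ± 0.021 (SE) was small and even across arrays (limma, adjusted p = 0.207), and its 4 other probe sets differed by 0.013, 0.0022, -0.53 and -0.13. Gnaq, the subunit used by the cholecystokinin, neurotensin and bombesin-family receptors, read 11.21, 11.18 and 11.22 in knockout arrays, against 11.31, 11.30, 11.33 and 11.26 in wild-type arrays (-0.098 ± 0.031, SE; limma, adjusted p = 0.313), and of its 6 other probe sets 4 were lower and 2 higher. The adenylyl cyclase gene Adcy3 differed by -0.197 ± 0.049 (SE; limma, adjusted p = 0.267) and Gnao1, the abundant neuronal subunit of the Gi and Go class, by -0.12 ± 0.037 (SE; adjusted p = 0.315), and 2 other probe sets of each went the other way, up to 0.11 and 0.086. The rest of the 6 were Plcb1 at -0.147 and Prkaca at -0.083. Their other probe sets were all higher, at 0.022 to 0.145 for Plcb1 and at 0.072 for Prkaca. General neuron markers also leaned lower, with a median of -0.072 and 4 of 8 lower without overlap, and their part in this list was not tested.

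**Figure D4:**
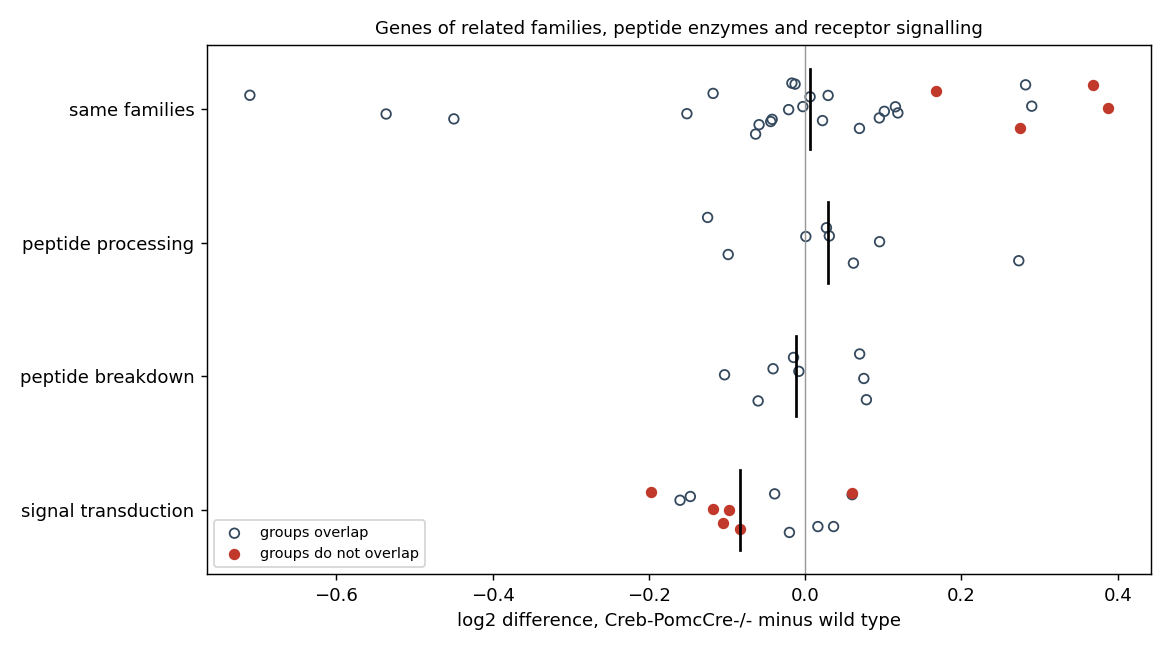
Log2 difference, Creb-PomcCre-/- minus wild type, of 27 genes of the same and neighbouring peptide families, 8 processing genes, 8 breakdown genes and 13 signal transduction genes, 1 point per gene (vertical offsets within a row have no meaning), filled where the groups do not overlap; black bars are list medians, at 0.0063, 0.029, -0.012 and -0.083. The filled points of the first row are all above 0, and those of the signal transduction row are below 0 except Gna11.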

How the data were processed

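Hypothalamic RNA of 3 Creb-PomcCre-/- and 4 wild-type samples was measured on Affymetrix mouse430_2 arrays, 1 per sample. Expression is on the log2 scale as deposited. The submitters' processing notes list R 2.10.0, affy and RMA but give neither order nor settings. As usually run, RMA equalises intensity distributions between arrays, gives no detection call and compresses differences of dim probe sets. Precision is limited by how few arrays there are, and over all probe sets the median SE of a difference was 0.079.

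Of 45101 probe sets, 64 controls were left out. The platform annotation gives 1 symbol to 34945 of the rest, several to 932 and none to 9160, and no gene was named from several. Differences, knockout minus wild type, came from limma 3.58.1 in R 4.3.3 (lmFit, eBayes with an intensity trend, two-sided) over all 45037 probe sets, with p-values adjusted by Benjamini-Hochberg and called at 0.05. Gene lists used the probe set with the highest mean per gene (18193 genes). An exact permutation test of 3 against 4 arrays cannot go below 0.0571 and was not used. The labels call the samples of a group biological replicates; if any share a mouse or pool, p-values measure only the spread between these samples. Numbers 1 to 3 occur in both groups, and deviations of same-numbered arrays correlated at 0.26, 0.11 and 0.16 over probe sets, so that a fit with the number as a block was run. The fit was tested on simulated data.

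The members and lists were chosen with earlier results of these data known, and so were the motifs. Every member was named with all its probe sets, and up to 4 genes of each of 4 related lists by smallest unadjusted p. Plcb1 and Prkaca were named too, to complete the signal transduction genes lower at an unadjusted p under 0.05. Spx was named as the only gene of the family list lower at that level. Creb1 was added as the deleted gene, and markers where a value touched a result. Other settings tried were a filter on low values, the variance model, array weights, normalization, sex, replicate block, probe set choice, threshold and leaving out arrays. Figures used matplotlib 3.10.9 in Python 3.11.15.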

Additional observations from a re-analysis of the deposited data

Results flagged for a closer look

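By the sex read from the arrays, the male knockout effect on Nts minus the female effect was -0.772 ± 0.159 (SE). The single female knockout array lay above both female wild-type arrays, and both male knockout arrays lay below both male wild-type arrays. Those male wild-type arrays had the highest meningeal scores, 0.33 and 1.11. Among wild-type arrays sex and meningeal score cannot be told apart. An interaction term over all probe sets, chosen after the data were seen, gave an unadjusted p of 0.00174 and an adjusted p of 1 (limma), and it passed for 0 of 45037 probe sets, with 3.97% at an unadjusted p under 0.05. For Glp1r the same contrast was 0.204 ± 0.157 (SE; limma, adjusted p = 1), with opposite directions in all arrays of the sexes. Such opposite directions without overlap were seen for 9.05% of all probe sets, and the female contrast has 1 knockout array.

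In the 39 groups examined, which leave out many genes of the lists, 1 wild-type value stood far from the other 3 for 2 genes. The measure was the gap to the nearest array divided by the group's range, which chance puts past the limit for about 1 in 20 groups. It is no count over all genes. For Iapp that ratio was 0.934, with wild-type array 3 at 3.68 and the others at 3.85 to 3.86. All of these values lie inside the range that Y-linked probe sets gave in female arrays. For Thop1 the ratio was 0.887, with wild-type array 4 at 8.07 and the others at 7.89 to 7.91.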

How the results depend on the processing

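The count of 0 members past the threshold held under all alternatives run, including an adjusted p under 0.1, males alone and the arrays without wild-type 2 and 3 (the last 2 chosen after seeing the data). Members without overlap between groups were 1 rather than 2 after subtracting array medians (1) or quantile normalization (1), with Cckbr lost, and 2 to 3 with an array left out. Over all probe sets 3 passed, and 5 with sex as a covariate, 17 at an adjusted p under 0.1, and 3 to 46 with an array left out: leaving out wild-type array 1 gave 46 and wild-type array 2 gave 12, and leaving out knockout arrays 1, 2 and 3 gave 16, 9 and 5. The replicate block (arrays numbered 1 to 3) gave 2 and changed no call, with Nts at -0.39 there. Of 493 alternative values for 42 differences, 16 changed sign. With an array left out, Galr1 ran from -0.021 to 0.081 (1427704_a_at) and from -0.068 to 0.17 (1441329_at), and Ntsr1 from -0.087 to 0.0093. In males alone the 2 Galr1 probe sets were at -0.043 and -0.125. With the mean of a gene's probe sets, Cckbr was at 0.026, Creb1 at 0.047, Thop1 at -0.0088, Dpp4 at -0.18 and Gnao1 at 0.011. Prep was at 0.0076 without wild-type arrays 2 and 3. The cause was not tested. The 5 dim member probe sets gave no value with dim probe sets dropped. Of 80 alternative medians of the 10 lists, 8 moved by more than the spread between arrays, the meningeal one to 0.0080 without wild-type arrays 2 and 3. Signal over background limits Galr1, Glp1r, Cckbr 1460663_at and Brs3.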
